A study of Homo sapiens with 6 samples.

Results

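Polyamine metabolism is described here through 10 genes, chosen by name from a table of 26364 genes: ODC1, AMD1, SRM and SMS for synthesis, OAZ1, OAZ2 and AZIN1 for antizyme control, and SAT1, SMOX and PAOX for breakdown. All 10 were in the table, and all 10 were among the 13297 genes that averaged 10 or more normalized counts and so were tested. RNA was sequenced from MV4-11, an established human acute myeloid leukaemia line that carries an internal tandem duplication in the receptor tyrosine kinase gene FLT3. The 3 libraries with 22d came from cells kept 18 hours with that compound, known as an inhibitor of the deacetylase HDAC8, at the 10 nM given in the labels, and the 3 libraries with DMSO came from cells given vehicle for the same time. The labels do not say whether the numbered libraries of a group were separate cultures, so the p-values rest on a spread between libraries that may be technical. In limma-trend, the main test, each gene's variance is also drawn toward a trend over the genes tested.

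Polyamines are small positively charged molecules that bind nucleic acids and are needed for growth and translation. Ornithine decarboxylase makes putrescine, S-adenosylmethionine decarboxylase makes the aminopropyl donor, and spermidine synthase and spermine synthase use that donor to lengthen putrescine. Antizymes, whose translation rises with polyamines through a ribosomal frameshift, bind ornithine decarboxylase and send it to the proteasome, and antizyme inhibitors release it. Acetylation by the SAT1 enzyme, followed by oxidation by PAOX, turns the longer polyamines back, while SMOX oxidizes spermine directly. Much of this control acts on translation and protein stability, which read counts do not measure.

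The genes of synthesis and the acetyltransferase gene moved in opposite directions. All 4 synthesis genes fell with 22d, SRM the most, to 33.6% of its DMSO mean, and SAT1 rose 4.37-fold. Among the antizyme genes OAZ1 fell to 74.9%, a call that did not hold with quantile normalization or with scaling by library totals, and OAZ2, AZIN1, SMOX and PAOX did not pass the test. In all 1 of 10 members was higher and 5 of 10 were lower, against 28.5% and 29.6% of the 13297 genes tested, and the 6 members called in either direction stand beside 58.0% of all genes. That share is near the background, so the number of polyamine genes called is no result about them. A gene rose, fell or was called where limma-trend on log2(normalized counts + 1) gave it an adjusted p (Benjamini-Hochberg, whole table) under 0.05, and every log2 fold change below is on that scale, 22d over DMSO. A normalized count is the number of reads after division by a size factor of its library, so a change in RNA per cell, or in the share of cells that make a transcript, cannot be told apart from a change per transcript.

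**Figure D1:**
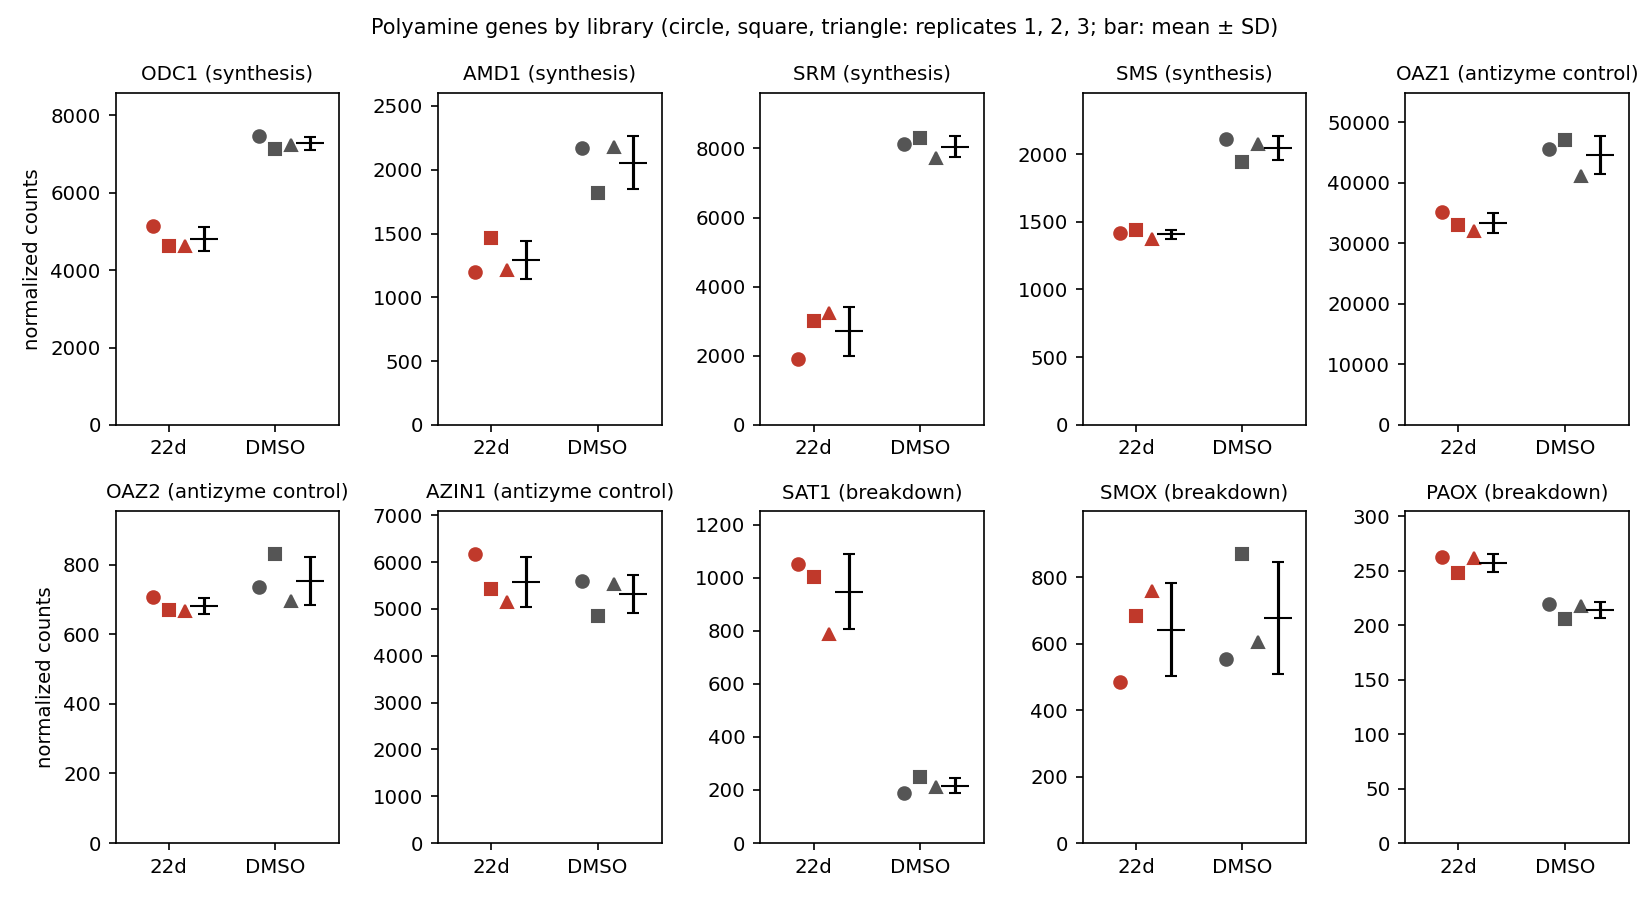
Normalized counts (vertical axis, from 0) of the 10 polyamine genes in each library, 22d left of DMSO. Symbols mark replicates 1 to 3 and the bar the mean ± SD (n = 3); the groups do not overlap for the 4 synthesis genes, OAZ1, SAT1 and PAOX.

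The libraries held 20070076 to 23749257 reads in genes with 22d and 19995430 to 23353064 with DMSO. Reads fell in 19285 genes in 22d replicate 3 and in 16268 to 17055 genes in each of the other libraries. All 10 myeloid markers looked at were past the filter (3 higher, 2 lower, 5 not past). FLT3, PTPRC and CSF1R rose, PTPRC the most at 3.13-fold, and CD33 and SPI1 were among those not past. LYZ fell to 37.1% of its DMSO mean and MPO to 16.4%. The 10 markers summed to 54734 to 65786 normalized counts with 22d and 80170 to 100008 with DMSO. LYZ alone averaged 16624 with 22d and 44816 with DMSO. The 5 lymphoid markers summed to 90.3 to 128 with 22d and 117 to 171 with DMSO, with MS4A1 and CD3D at 0 in all libraries, and the 5 erythroid markers to 0.98 to 5.88 with 22d and 3.10 to 10.2 with DMSO. The 5 epithelial markers summed to 416 to 538 with 22d and 296 to 357 with DMSO, nearly all from KRT8 and KRT18, with EPCAM, KRT19 and CDH1 at 0 in every DMSO library. The part of these markers in the polyamine values was not tested. On the first principal component, which held 80.5% of the variance, 22d replicate 1 lay furthest from DMSO. With scaling by library totals the median of all tested genes moved to 0.22 on the log2 scale and 65.6% of calls were higher, against 49.0% with the size factors of the deposited table, to which all changes here are relative.

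Promoter sequences are printed for SRM and ODC1, which fell, and for SAT1, which rose. AMD1 and SMS also fell, and theirs are not printed. RefSeq windows of 300 bases (GRCh38.p14) were found for 7 of the 10 members. They were searched on both strands for CACGTG, the E-box hexamer bound by MYC and related factors, and for GTAAACA, a forkhead core, since the study's title names FOXO. CACGTG was in the single window of SRM and in 1 of 2 windows of ODC1, and in none of those of AMD1, SMS, OAZ1, OAZ2 and SAT1. Of 35116 windows over all genes, 7.26% held it, a share not matched for base content. G and C made up 82.0% of the SRM window and 80.7% of the ODC1 window that held it. In the member windows without it they made up 65.3% to 79.0%. GTAAACA was in no member window and in 3.42% of all windows. A match is a description of the letters, not of binding.

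The SRM stretch is the 250 bases before its RefSeq start, on the minus strand at chr1:11060019-11060268, and its last 6 bases lie in an exon of a GENCODE transcript. The ODC1 stretch is the 100 bases before its second RefSeq start, on the minus strand at chr2:10448013-10448112. It lies in intron 1 of 2 of the 4 ODC1 transcripts in GENCODE release 29 and outside the other 2. This stretch was picked because its window held CACGTG. The window of the other ODC1 start, which did not hold it, is not printed. The SAT1 stretch is the 250 bases before its start, on the plus strand at chrX:23782923-23783172. Capitals mark CACGTG, whose first base is 199 bases before the start in SRM and 29 before it in ODC1; the ODC1 window held one more copy in the 50 bases after the start.
SRM: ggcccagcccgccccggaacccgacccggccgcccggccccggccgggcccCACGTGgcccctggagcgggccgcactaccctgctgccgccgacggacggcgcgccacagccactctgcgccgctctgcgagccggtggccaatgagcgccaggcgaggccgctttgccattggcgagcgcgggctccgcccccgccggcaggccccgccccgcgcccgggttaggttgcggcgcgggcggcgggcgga
ODC1: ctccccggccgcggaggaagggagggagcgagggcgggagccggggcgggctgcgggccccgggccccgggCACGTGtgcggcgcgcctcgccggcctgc
SAT1: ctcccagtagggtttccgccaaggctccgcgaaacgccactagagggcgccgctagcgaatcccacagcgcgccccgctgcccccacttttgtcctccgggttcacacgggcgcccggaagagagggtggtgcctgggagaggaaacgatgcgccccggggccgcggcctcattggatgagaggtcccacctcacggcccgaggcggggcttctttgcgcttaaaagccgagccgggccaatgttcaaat

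ODC1, the gene of ornithine decarboxylase and the first step of synthesis (chromosome 2, 10439968 to 10448504, minus strand, GRCh38, GENCODE release 29), held 5154, 4627 and 4629 normalized counts in the 3 libraries with 22d and 7466, 7138 and 7237 with DMSO. The groups did not overlap and the libraries of each group lay close together. The log2 fold change was -0.60 (adjusted p = 0.00017 by limma, SE 0.10), with means (± SD, n = 3 in each group) of 4803 ± 304 with 22d and 7280 ± 168 with DMSO. Of the genes tested, 2710 had a lower log2 fold change. It was -0.29 with quantile normalization (adjusted p = 0.024) and -0.38 with scaling by library totals (adjusted p = 0.0034).

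AMD1 encodes S-adenosylmethionine decarboxylase, which makes the aminopropyl donor (chromosome 6, 110874770 to 110895713). It had 1198, 1463 and 1215 normalized counts with 22d, against 2172, 1814 and 2179 with DMSO, and no library with 22d reached the lowest DMSO library. It fell by 0.67 on the log2 scale (adjusted p = 0.00038 by limma, SE 0.12). The ratio of AMD1 to ODC1 within a library overlapped between the groups, with a mean log2 ratio (± SD, n = 3 in each group) of -1.90 ± 0.22 with 22d and -1.83 ± 0.13 with DMSO.

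SRM, the gene of spermidine synthase (chromosome 1, 11054584 to 11060024), had the steepest fall of the 10 genes. It held 1896, 2997 and 3230 normalized counts with 22d and 8124, 8318 and 7719 with DMSO. Replicate 1 with 22d was the lowest library, and the spread was wider with 22d (coefficient of variation 26.3%) than with DMSO (3.79%). The log2 fold change was -1.61 (adjusted p = 3.7e-06 by limma, SE 0.16), and 425 of the 13297 genes had a lower one. Without 22d replicate 1 it was -1.37. SRM and AMD1 have pseudogenes in GENCODE, 6 by name, and how reads shared with them were counted is not given in the sources used here.

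SMS encodes spermine synthase, which takes spermidine to spermine (chromosome X, 21940573 to 21994835). Its libraries held 1416, 1436 and 1372 normalized counts with 22d, against 2113, 1942 and 2074 with DMSO. The fall of 0.54 on the log2 scale (adjusted p = 0.00050 by limma, SE 0.10) was the smallest of the synthesis genes. With quantile normalization SMS was at -0.35 (adjusted p = 0.0087 by limma), and ODC1, at -0.29, fell less. With scaling by library totals SMS was at -0.32 (adjusted p = 0.020 by limma). Within each library SRM stood at 134, 209 and 236 per 100 normalized counts of SMS with 22d and at 384, 428 and 372 with DMSO, so these 2 synthase genes did not keep their ratio. A single factor per library leaves such a ratio as it is, while quantile normalization does not.

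MYC, the gene of a factor known to drive ODC1 transcription, held 6550, 10694 and 12021 normalized counts with 22d and 17223, 17575 and 15582 with DMSO. It fell by 0.83 on the log2 scale (adjusted p = 0.0014 by limma, SE 0.18). Its lowest library was 22d replicate 1, as for SRM, AMD1 and SMOX, whereas ODC1 was highest in that library among those with 22d. What part MYC has in these values was not tested.

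OAZ1, the gene of the main antizyme (chromosome 19, 2269509 to 2273490), held 35208, 33075 and 31975 normalized counts with 22d and 45635, 47060 and 41130 with DMSO. The groups did not overlap, and it fell by 0.42 on the log2 scale (adjusted p = 0.0048 by limma, SE 0.11). That call was lost with quantile normalization (-0.14, adjusted p = 0.14) and with scaling by library totals (-0.19, adjusted p = 0.052). ODC1 stood at 14.6, 14.0 and 14.5 per 100 normalized counts of OAZ1 with 22d and at 16.4, 15.2 and 17.6 with DMSO, groups that did not overlap.

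OAZ2, a second antizyme gene (chromosome 15, 64687573 to 64703281), had 707, 671 and 667 normalized counts with 22d and 735, 831 and 695 with DMSO. The groups overlapped, and the log2 fold change of -0.14 (adjusted p = 0.31 by limma) had a 95% interval of -0.39 to 0.11; with scaling by library totals its sign turned (0.08, adjusted p = 0.58).

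AZIN1 encodes an antizyme inhibitor, a relative of ornithine decarboxylase without its activity that binds antizyme in its place (chromosome 8, 102826357 to 102893864). It held 6170, 5420 and 5148 normalized counts with 22d and 5591, 4843 and 5529 with DMSO. The libraries of the groups were interleaved, with a log2 fold change of 0.07 (adjusted p = 0.61 by limma, 95% interval -0.17 to 0.30). It passed with quantile normalization (0.38, adjusted p = 0.016) and with scaling by library totals (0.29, adjusted p = 0.038), and lay at -0.01 without 22d replicate 1 (adjusted p = 0.96). AZIN1-AS1, on the opposite strand and overlapping AZIN1, held 59.6 to 79.4 normalized counts with 22d and 73.5 to 88.9 with DMSO; the strand setting of the counting was not given in the sources used here.

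SAT1 encodes spermidine/spermine acetyltransferase, the enzyme that starts polyamine breakdown and export (chromosome X, 23783173 to 23786226). It held 1052, 1004 and 787 normalized counts with 22d and 190, 247 and 213 with DMSO. These rest on 1076, 1100 and 937 reads with 22d and 167, 239 and 194 reads with DMSO. Every library with 22d had more than 3 times the counts of any DMSO library. The log2 fold change was 2.12 (adjusted p = 2.2e-07 by limma, SE 0.15, 95% interval 1.80 to 2.44), and 196 of the 13297 genes had a higher one. The value in the authors' deposited table was 2.08, and the log2 fold change ran from 2.03 to 2.34 over 16 alternatives. SAT1 stood at 20.4, 21.7 and 17.0 per 100 normalized counts of ODC1 with 22d and at 2.55, 3.46 and 2.94 with DMSO.

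SMOX, the gene of spermine oxidase (chromosome 20, 4120980 to 4187747), held 486, 683 and 757 normalized counts with 22d and 554, 869 and 606 with DMSO. It had the widest spread of the 10 genes with DMSO, with a coefficient of variation of 25.0%, against 21.8% with 22d. The groups overlapped, with a log2 fold change of -0.07 (adjusted p = 0.76 by limma) and a 95% interval of -0.48 to 0.33, so changes of that size in either direction lie within the interval. Its sign turned in 3 of 16 alternatives, none of which passed.

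PAOX encodes the oxidase of acetylated polyamines (chromosome 10, 133379234 to 133391694). It held 262, 247 and 261 normalized counts with 22d and 220, 206 and 217 with DMSO, so the groups did not overlap. The log2 fold change of 0.26 (SE 0.14) did not pass (adjusted p = 0.12 by limma, 95% interval -0.04 to 0.56), and it passed with scaling by library totals (0.48, adjusted p = 0.014). In all, the groups did not overlap for 7 of the 10 members, against 65.4% of all genes tested.

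**Figure D2:**
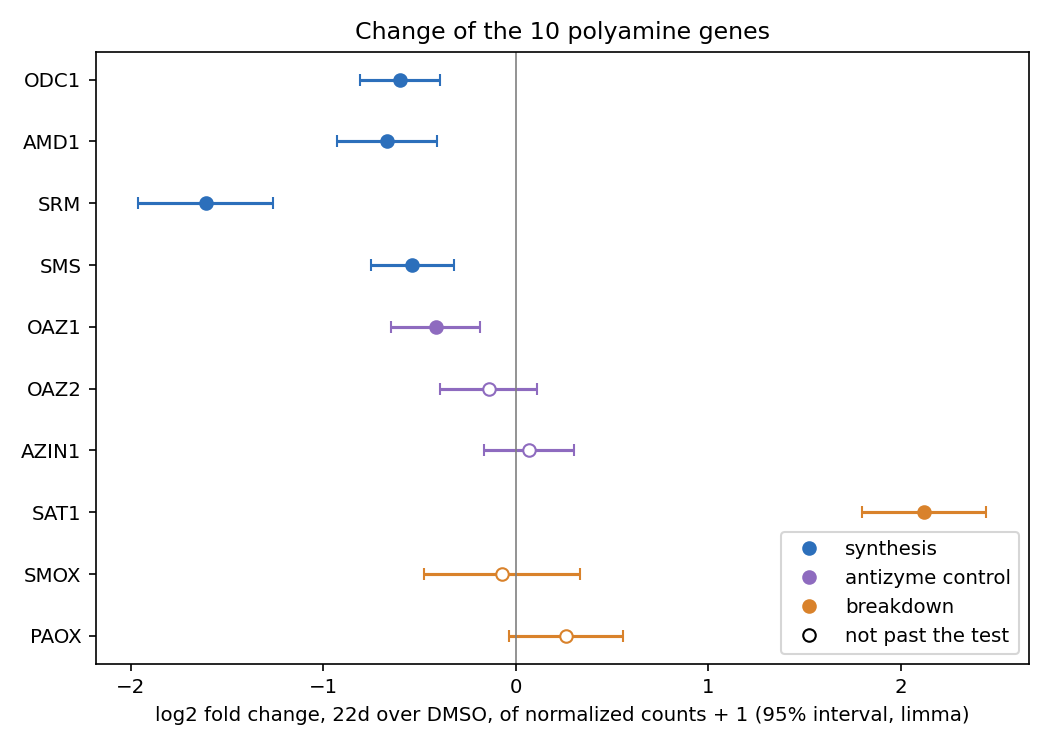
Log2 fold change (horizontal axis) of each polyamine gene, 22d over DMSO, with its 95% interval from limma; filled points passed the test. The 4 synthesis genes lie between -1.61 and -0.54, and SAT1 lies at 2.12.

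Set against each other by role, the median log2 fold change was -0.64 over the 4 synthesis genes, -0.14 over the 3 antizyme control genes and 0.26 over the 3 breakdown genes, beside 0.01 over all genes tested. The mean log2 value of the synthesis genes was 10.98, 11.18 and 11.13 with 22d and 12.00, 11.89 and 11.96 with DMSO. That of the breakdown genes was 9.00, 9.12 and 9.07 with 22d and 8.16, 8.47 and 8.25 with DMSO. Neither mean overlapped between the groups, but without SAT1 the breakdown mean did, at 8.48, 8.69 and 8.80 with 22d and 8.45, 8.73 and 8.51 with DMSO. Without SAT1 the difference in that mean was 0.09, against 0.77 with it. The difference between the roles changed by -1.62 on the log2 scale, 22d minus DMSO, and by -0.95 with SAT1 left out of the breakdown genes. With quantile normalization the first of these values was -1.35. As the genes were chosen with earlier results in view, no p is given for these values.

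**Figure D3:**
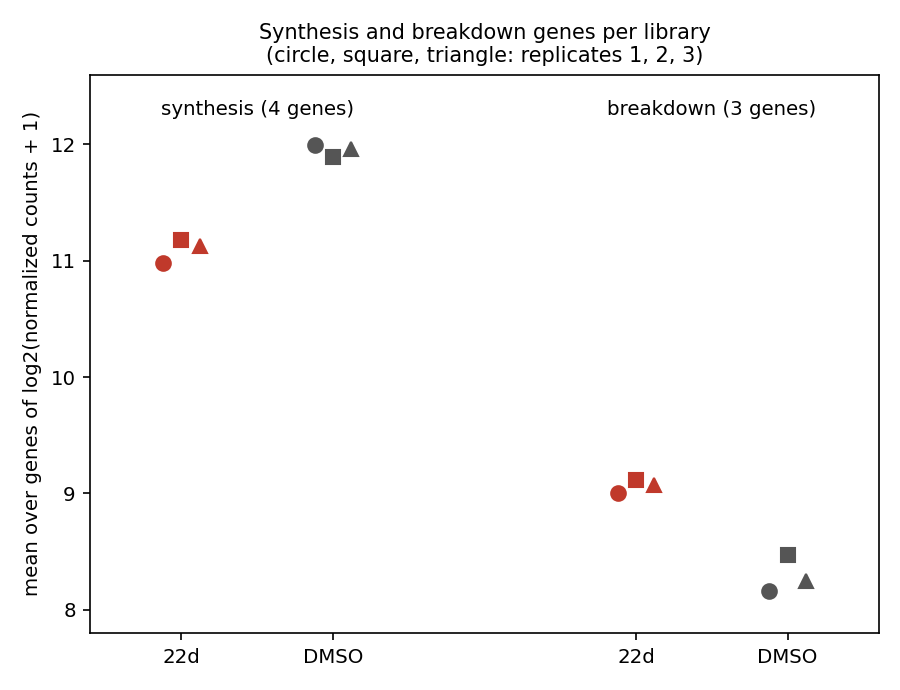
Mean of log2(normalized counts + 1) (vertical axis) over the synthesis genes and over the breakdown genes in each library, 22d left of DMSO. Symbols mark replicates 1 to 3; synthesis is 0.85 lower with 22d and breakdown 0.77 higher, or 0.09 higher without SAT1, where the groups overlap.

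Levels can be compared between genes per length, here as normalized counts per kilobase of the union of GENCODE release 29 exons. With 22d the order was OAZ1 (9726 ± 478), ODC1 (1618 ± 102), SRM (1427 ± 376), AZIN1 (868 ± 82.4), SMS (652 ± 15.3), SAT1 (379 ± 56.6), SMOX (218 ± 47.6), AMD1 (184 ± 21.1), PAOX (113 ± 3.61) and OAZ2 (88.9 ± 2.85) (SD, n = 3). ODC1 and SRM, and SMOX and AMD1, overlapped between their libraries. With DMSO the order was OAZ1 (12983 ± 901), SRM (4243 ± 161), ODC1 (2453 ± 56.7), SMS (946 ± 41.5), AZIN1 (828 ± 64.5), AMD1 (292 ± 29.7), SMOX (230 ± 57.3), OAZ2 (98.3 ± 9.05), PAOX (94.1 ± 3.24) and SAT1 (86.7 ± 11.5) (SD, n = 3). Here AMD1 and SMOX, OAZ2 and PAOX, and PAOX and SAT1 overlapped. OAZ1 was thus the most abundant of the 10 transcripts in both groups, and SAT1 stood sixth with 22d and last with DMSO. The union of exons came to 7027 bases for AMD1 and 7671 for OAZ2, and the level of a gene whose main transcript is shorter than its union is understated on this scale.

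**Figure D4:**
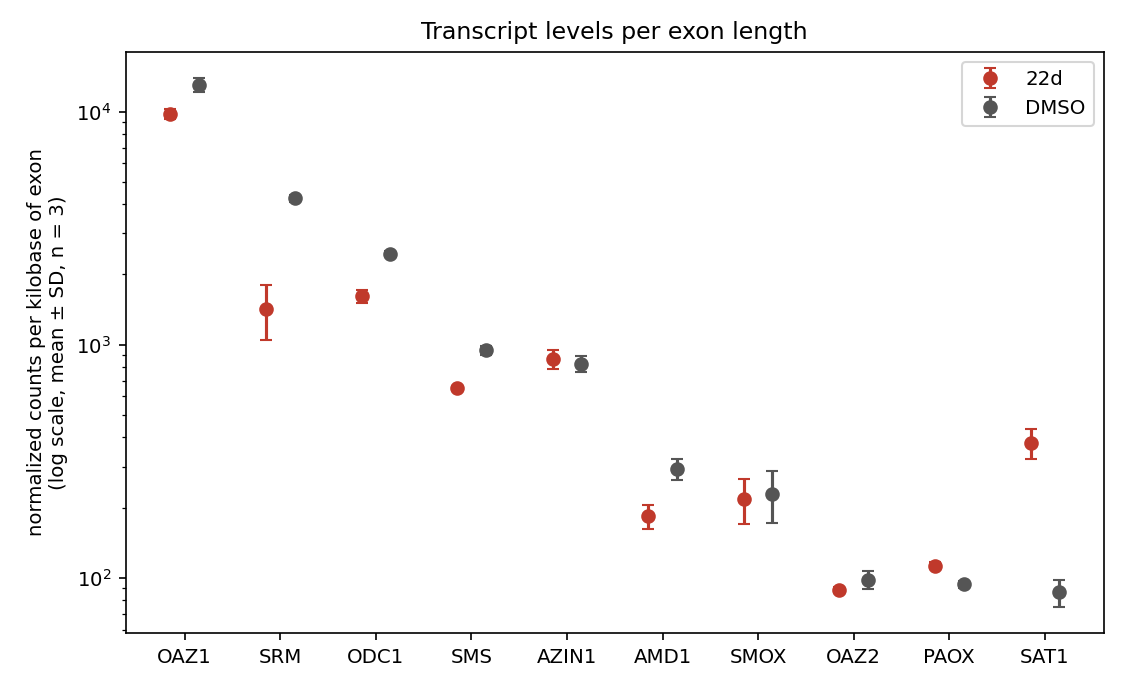
Normalized counts per kilobase of exon (vertical axis, log scale) of each polyamine gene, mean ± SD of 3 libraries, 22d left of DMSO, ordered by the DMSO level. OAZ1 is highest in both groups, and SAT1 goes above AMD1 and SMOX with 22d.

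The other genes of the pathway were read from 4 lists, and 24 of 31 were past the filter. Of these 6 passed as higher, 10 fell and 8 did not pass, but ATP13A4 and SLC12A8, among the 6, were past the filter only through their libraries with 22d. With a filter at a mean of 50, which leaves both out, 4 rose and 10 fell, and with scaling by library totals 8 rose and 7 fell. Their shares are again to be read against 28.5% and 29.6% of all genes.

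Hypusine formation links polyamines to translation: spermidine gives the side chain of hypusine, an amino acid found in the translation factor EIF5A, in reactions of DHPS and DOHH. EIF5A (chromosome 17, 7306999 to 7312463) held 6038, 9668 and 9240 normalized counts with 22d and 31828, 33620 and 27357 with DMSO. It fell to 26.9% of its DMSO mean, a log2 fold change of -1.92 (adjusted p = 7.7e-07 by limma, SE 0.16), and was lowest in 22d replicate 1. DOHH, the hydroxylase gene, held 783, 851 and 836 normalized counts with 22d and 1787, 2232 and 1702 with DMSO, and fell by 1.20 (adjusted p = 3.8e-06 by limma, SE 0.12). DHPS fell by 0.39, a call lost with quantile normalization (-0.15, adjusted p = 0.19) and with scaling by library totals (-0.17, adjusted p = 0.16). The EIF5A paralogue EIF5A2 rose by 0.87 on the log2 scale (adjusted p = 0.0059 by limma). EIF5A has near copies in the genome: EIF5AL1 had 8.80 to 21.0 normalized counts with 22d and 45.0 to 59.0 with DMSO, and reads shared with such copies may be miscounted. GPS2, on the opposite strand and overlapping EIF5A, held 1480 to 1561 normalized counts with 22d and 1856 to 1890 with DMSO.

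Of 9 paralogues and other polyamine enzymes, 7 were past the filter. Of these 2 rose and 2 fell, against 28.5% and 29.6% of all genes tested. AZIN2, a second antizyme inhibitor gene (chromosome 1, 33081104 to 33120530), held 591, 449 and 499 normalized counts with 22d and 47.8, 70.3 and 59.2 with DMSO. The groups stood far apart, at a log2 fold change of 3.10 (adjusted p = 6.5e-08 by limma, SE 0.18, an 8.68-fold difference of means), and 46 of the 13297 genes had a higher value. AZIN1, its relative, did not pass, as given above. SAT2, a paralogue of SAT1, held 764, 525 and 518 normalized counts with 22d and 183, 205 and 215 with DMSO, and rose by 1.56 on the log2 scale (adjusted p = 5.2e-06 by limma, SE 0.16). SHBG, which overlaps it on the opposite strand, held 2.74 to 7.82 normalized counts with 22d and 1.10 to 2.07 with DMSO. AGMAT held 33.2, 86.7 and 76.4 normalized counts with 22d and 304, 223 and 286 with DMSO, and fell by 2.13 on the log2 scale (adjusted p = 4.7e-05 by limma, SE 0.29). It overlaps DNAJC16 on the opposite strand, which held 390 to 514 normalized counts with 22d and 283 to 340 with DMSO. OAT, which uses ornithine for glutamate and proline metabolism, fell by 0.50, and that call was lost with scaling by library totals (adjusted p = 0.097).

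Each reaction of SRM and SMS leaves methylthioadenosine, which a salvage pathway turns back to methionine. Of 7 genes of S-adenosylmethionine supply and of this salvage, 4 fell and 0 rose, against 29.6% and 28.5% of all genes tested. Those that fell were ADI1 (-0.68), MRI1 (-0.58), ENOPH1 (-0.53) and MTAP (-0.49), while APIP, another salvage gene, stood at 0.24 without passing (adjusted p = 0.18 by limma). These, like EIF5A2, DHPS, OAT and MAT2A, are named after their values were seen. With DMSO replicate 1 left out MTAP no longer passed (-0.36, adjusted p = 0.079), nor did it with scaling by library totals (-0.27, adjusted p = 0.16). MAT2A, a methionine adenosyltransferase gene, had a value of -0.25 (adjusted p = 0.087 by limma), and MAT2B, the gene of its regulatory partner, of -0.07 (adjusted p = 0.65 by limma), and neither passed.

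Of 11 genes tied to polyamine transport, 6 were past the filter, ATP13A4 and SLC12A8 only through the libraries with 22d. Of the others ATP13A2 rose and SLC3A2 fell. These too are named after their values were seen. ATP13A2, the gene of a lysosomal polyamine exporter, held 1206, 1380 and 1635 normalized counts with 22d and 877, 1149 and 969 with DMSO, a rise of 0.49 (adjusted p = 0.0079 by limma). SLC3A2, a subunit of amino acid transporters, fell by 0.89 (adjusted p = 1.8e-05 by limma). ATP13A4 held 23, 18 and 25 reads with 22d and 0, 1 and 1 with DMSO, so its fitted value is no bound. SLC12A8 averaged 31.4 normalized counts with 22d and 7.21 with DMSO. Both had to differ to be tested, so their calls are no support for a change in transport genes.

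**Figure D5:**
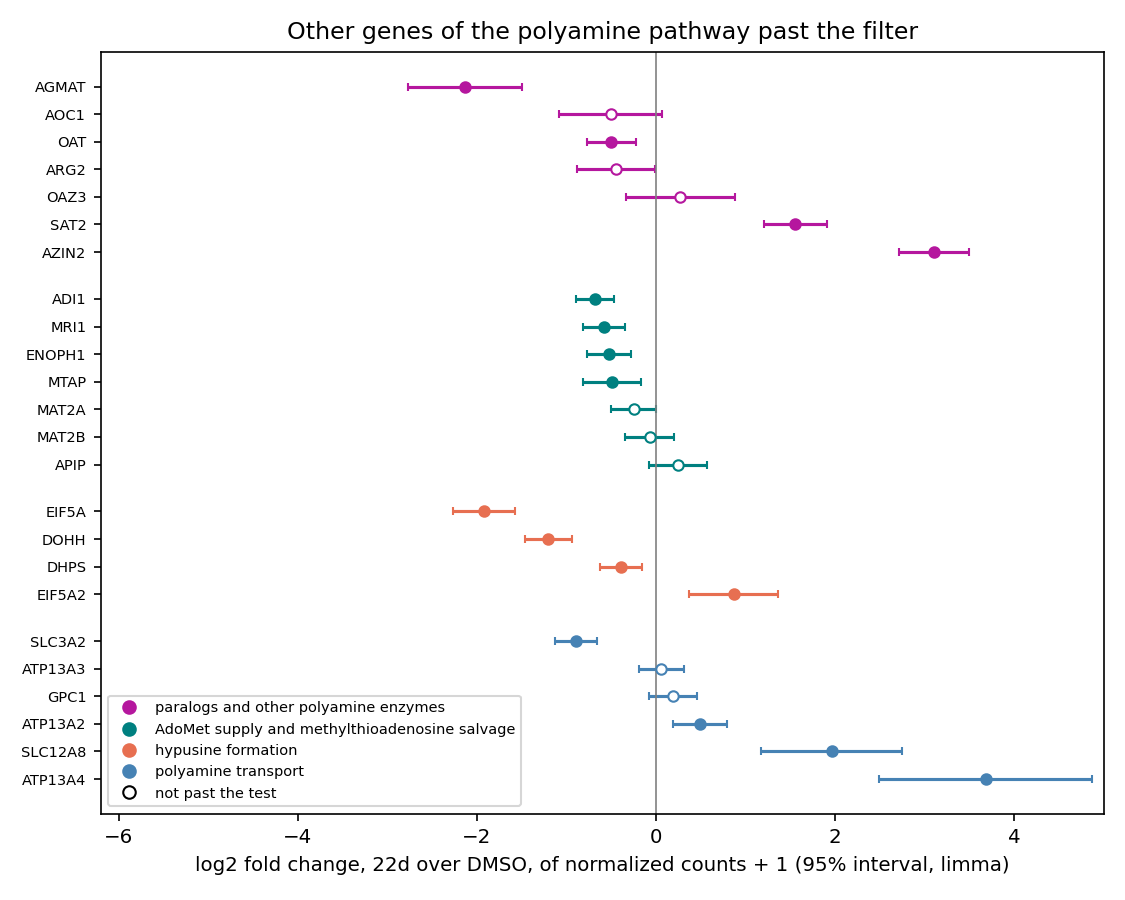
Log2 fold change (horizontal axis), 22d over DMSO, with its 95% interval from limma, of the 24 other pathway genes past the filter, by list; filled points passed the test. AZIN2 lies at 3.10 and AGMAT at -2.13.

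The genes whose pattern over the 6 libraries was most like that of ODC1, by the root-mean-square difference of centred log2 values among 10139 other genes with a mean of at least 100, were DRG1 (0.03), SET (0.03) and PPP4R1 (0.03). DRG1 encodes a GTP-binding protein, SET a histone chaperone and PPP4R1 a phosphatase subunit. For SAT1 they were MVD (0.06), MVK (0.12) and TUBA1A (0.13). MVD and MVK encode enzymes of the mevalonate pathway and TUBA1A an alpha-tubulin. MVD held 6942, 6125 and 5227 normalized counts with 22d and 1124, 1583 and 1303 with DMSO, so that, as for SAT1, replicate 1 was the highest library with 22d and the lowest with DMSO. The likeness measure is dominated by the difference between the groups and is a description over 6 libraries.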

How the data were processed

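RNA-seq values of 6 MV4-11 libraries, 3 with 22d and 3 with DMSO, were read from one table of 26364 genes. The tools named in the submitters' processing notes are DESeq2, HTSeq, STAR, cutadapt and FastQC, with build hg38; their versions, the annotation, filters and strand setting are not given in the sources used here. As deposited, each gene has a normalized signal for every library and a mean over them, and from the authors' own comparison a log2 fold change with its error, a test score, a p-value and an adjusted p-value, per the file headers. Columns were matched to libraries by arm and number. The deposited signal is a read count over one size factor: multiplied back, 100% of values lay within 0.001 reads of a whole number.

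Genes were tested with limma-trend on log2 values with a pseudocount of 1 and no block, over 13297 genes with a mean of at least 10, with Benjamini-Hochberg adjustment. On the recovered reads edgeR's quasi-likelihood test called 7723 genes, against 7718. R 4.3.3, limma 3.58.1, edgeR 4.0.16, DESeq2 1.42.0, Python 3.11.15 and matplotlib 3.10.9 were used. The fit was also run on simulated data with far fewer changed genes than were called here, which leaves the scaling untested. The members and lists were chosen with earlier results of these data known. All members were named; other pathway genes were named if called with a mean of at least 100 and an absolute log2 fold change of at least 1, with EIF5A, MYC and the 3 genes most like ODC1 and SAT1; others are marked where named. Alternatives were 2 pseudocounts, 2 filters, 2 scalings, 2 count tests, the authors' table, a replicate block and leaving out each library. Intervals rest on the spread between libraries, with each gene's variance drawn toward a trend over the genes tested.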

Additional observations from a re-analysis of the deposited data

How the results depend on the processing

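Over 16 alternatives, the directions and calls of ODC1, AMD1, SRM, SMS and SAT1 did not change. The number of members higher was 2 with quantile normalization and 3 with scaling by library totals, against 1. The difference between synthesis and breakdown genes was -1.35 with quantile normalization, against -1.62, and ran from -1.74 to -1.53 with 1 library left out. Signs turned for members that had not passed: OAZ2 to 0.079 with scaling by library totals, AZIN1 to -0.008 without 22d replicate 1, and SMOX to 0.15 with scaling by library totals, 0.12 without 22d replicate 1 and 0.12 without DMSO replicate 2; none of these passed. For AZIN1 the values with 1 library left out ran from -0.008 to 0.123, and for SMOX from -0.20 to 0.12. Of 254 values of the called genes in the wider lists, 249 kept direction and call, 5 lost the call (OAT, MTAP and DHPS) and 0 turned. With a filter at a mean of 50, 4 wider genes rose, against 6, as ATP13A4 and SLC12A8 were not tested. Scaling decides the calls of OAZ1, AZIN1 and PAOX and moves the sizes of others: ODC1 was -0.29 with quantile normalization, against -0.60, and SMS -0.32 with scaling by library totals, against -0.54. Depth limits ATP13A4 and SLC12A8. With the replicate number as a replicate block, 7419 genes were called, against 7718, and no member changed its call. Deviations of same-numbered libraries from their group means correlated at -0.03, -0.02 and -0.10, and those of unlike-numbered libraries at -0.11 to 0.17. With 3 libraries in each group these values cannot decide whether same-numbered libraries shared a culture or day.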
